A study of Mus musculus with 18 samples.

Results

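Cxcl12, Nrg1 and Nrg3 encode ligands, and Cxcr4, Ackr3 and Erbb4 encode receptors, that guide inhibitory interneurons from the ventral forebrain into the cortex. They were taken by gene symbol and make up 6 of the 24062 lines of a table of raw read counts. RNA was sequenced from C57BL/6 mice with a heterozygous Chd2 genotype (Chd2+/-, HET) and from wild-type mice (WT). The tissues were hippocampus at postnatal day P45 and, at embryonic day E13.5, medial ganglionic eminence (MGE) and cortex. The 6 groups were hippocampus HET and WT, MGE HET and WT, and cortex HET and WT, each with 3 libraries. Chd2 encodes a chromatin remodelling ATPase, and the design asks how its heterozygous state alters RNA levels in each tissue. The labels name neither the allele nor the litters, nor do they say if each replicate is its own animal, so p-values cover only the spread among these libraries, which may be technical.

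CXCL12 is a chemokine that meninges and cortical progenitors release, and it holds interneurons in their tangential streams. CXCR4 passes the signal on through inhibitory G proteins, whereas ACKR3 binds and removes the chemokine without G protein signalling. Neuregulins are growth factors with an EGF-like domain that bind the receptor tyrosine kinase ErbB4 on interneurons, and NRG1 and NRG3 act on their route and within the cortical plate. In the adult brain, Erbb4 is enriched in inhibitory interneurons, and Cxcl12 is made by blood vessels and some neurons.

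Library totals were 26841671 to 38802765 counts, and levels are given as CPM, counts scaled to library size and by TMM over all 18 libraries. Chd2 averaged 66.0 ± 1.57 CPM in HET and 74.5 ± 4.12 CPM in WT hippocampus, 139 ± 4.38 and 163 ± 11 CPM in HET and WT MGE, and 124 ± 0.710 and 147 ± 5.17 CPM in HET and WT cortex (SD, n = 3 each). Its log2 fold change was -0.17 (SE 0.06) in hippocampus, -0.24 (SE 0.09) in MGE and -0.22 (SE 0.08) in cortex, below 0 in all 3 tissues without passing edgeR's test (adjusted p = 0.191, 0.980 and 0.578). Of 16 markers of MGE interneurons, 13 were called higher in WT MGE than in WT cortex, and 9 of 10 markers of projection neurons were called lower. Of all 16125 genes, 3456 were called higher in this comparison and 3689 lower. In MGE, the 3 HET libraries carried Y-linked RNA and the 3 WT libraries carried Xist, so genotype and sex cannot be told apart there. All 6 hippocampus libraries carried Xist, with at most 0.104 CPM of summed Y-linked RNA. In cortex, HET 1, HET 3 and WT 1 carried Y-linked RNA, and HET 2, WT 2 and WT 3 carried Xist. Sex is thus unbalanced between cortex HET and WT, and each of these groups holds more than 1 animal. Apart from WT hippocampus and WT MGE, which all carried Xist, the groups compared between tissues also differed in sex markers. Cortex HET 3 stood apart from HET 1 and HET 2, with a sum of 10 projection neuron markers of 2600 CPM against 1743 and 1635 CPM. The sum was 2437, 2578 and 2994 CPM in cortex WT 1, WT 2 and WT 3. HET 3 thus lay within the WT range, and HET 1 and HET 2 lay below it. In whole tissue, fewer cells of a type and less RNA per cell cannot be told apart.

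The genes lie on 4 chromosomes of the mouse genome (mm10, GENCODE M21). Cxcr4 (128588199 to 128592293, minus strand), Ackr3 (90203980 to 90216751, plus strand) and Erbb4 (68032186 to 69108059, minus strand) are on chromosome 1. Cxcl12 is on chromosome 6 (117168535 to 117181367, plus strand), Nrg1 on chromosome 8 (31814551 to 32884029, minus strand) and Nrg3 on chromosome 14 (38368952 to 39473088, minus strand). Counts were per symbol and do not separate isoforms, of which the annotation gives 18 for Nrg1. Exons of Nrg1 overlap those of Gm26578 on the opposite strand over 482 bases, or 4.66% of its exonic length. Reads there cannot be assigned, since the sources used here do not give the strand setting of the counting.

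The levels of all 6 genes differed between tissues. In WT libraries, Ackr3 and Erbb4 were highest in MGE, Cxcl12, Cxcr4 and Nrg1 were highest in embryonic cortex, and Nrg3 was highest in hippocampus. Age and region cannot be told apart in comparisons with hippocampus, the only tissue taken at P45. By edgeR's quasi-likelihood test with Benjamini-Hochberg adjustment (adjusted p under 0.05), all 6 differed in each of the 3 pairs of WT tissues, with exceptions under alternatives for Cxcr4, Cxcl12 and Nrg1 that are given with each gene. This is read against a large background, since of 16125 genes 44.3% were called between WT MGE and WT cortex, 78.9% between WT hippocampus and WT cortex and 80.4% between WT hippocampus and WT MGE. In HET libraries, 5 of 6 were called between MGE and cortex (background 41.0%), and 6 of 6 were called between hippocampus and cortex (80.2%) and between hippocampus and MGE (81.3%). Nrg3 was the exception.

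Differences that passed the test and reached at least 2-fold were counted as well. Between WT MGE and WT cortex, 2 members were at least 2-fold higher and 3 at least 2-fold lower, where 16.0% of genes passed in either direction. In HET MGE against HET cortex the members' counts were again 2 and 3, with a background of 15.8%. For hippocampus against cortex, 2 were higher and 3 lower in WT (background 52.8%), and 2 higher and 2 lower in HET (53.7%). For hippocampus against MGE, 2 were higher and 2 lower in WT (54.5%), and 2 higher and 3 lower in HET (55.3%). A share near the background is not a result about these genes. Where tissues are said below not to overlap, this is a description without a background. The share of all genes without overlap was counted only for HET against WT.

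**Figure D1:**
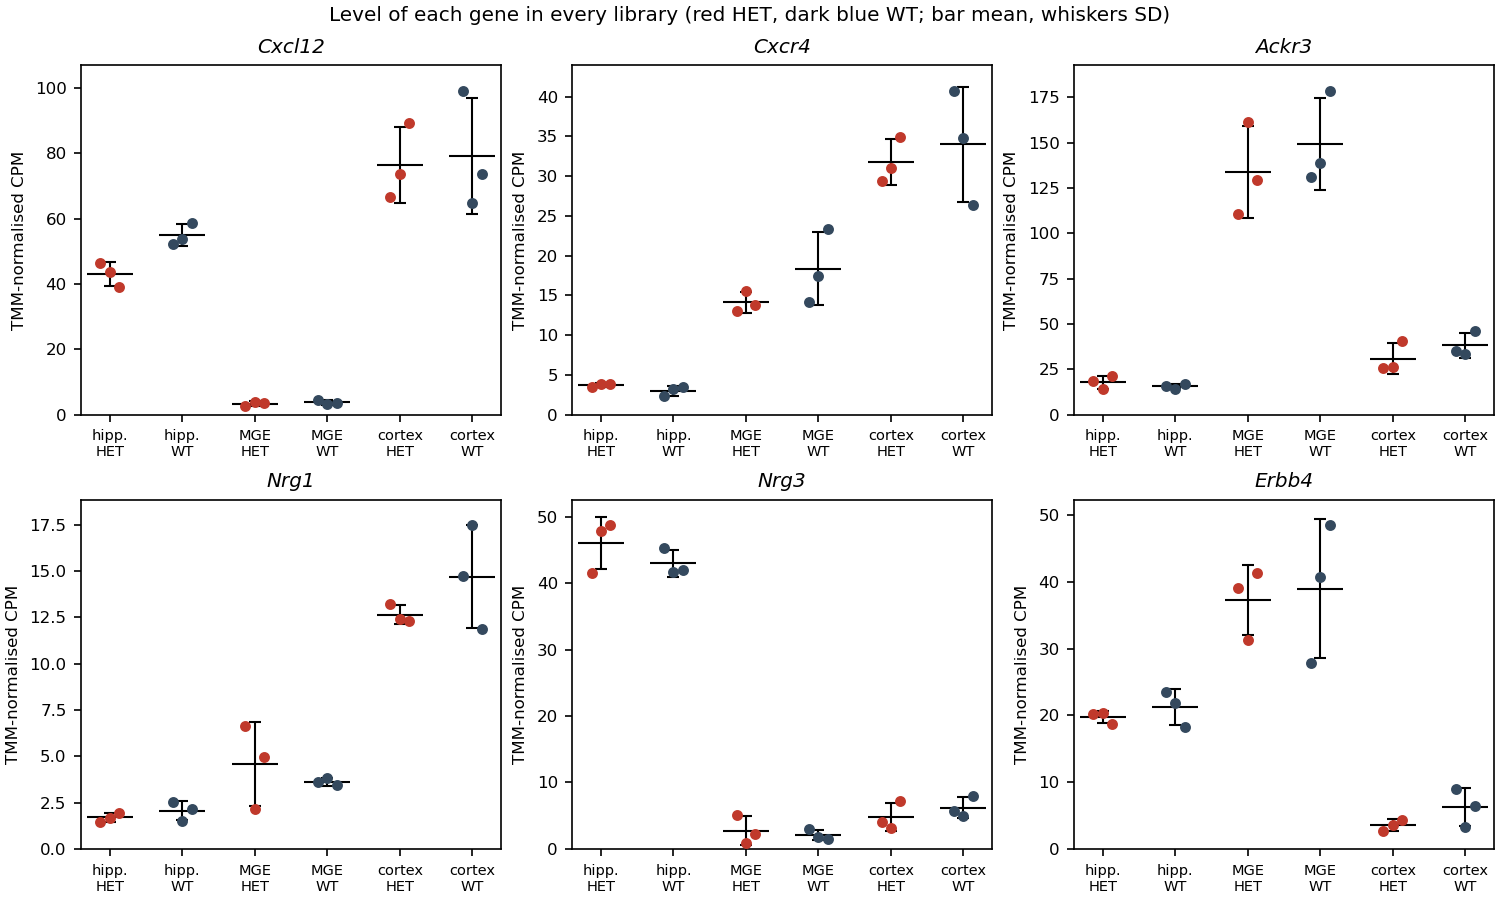
TMM-normalised level (CPM, vertical axes) of the 6 genes in each library, in hippocampus, MGE and cortex, with HET in red and WT in dark blue. Bars are means and whiskers SDs of 3 libraries. Cxcl12 stood at 2.69 to 4.59 CPM in MGE and Ackr3 at 111 to 178 CPM, and the HET and WT libraries of a tissue overlapped except for Cxcl12 in hippocampus.

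Cxcl12, the ligand of CXCR4 and ACKR3, was low in the MGE and abundant in the other tissues. It stood at 46.3, 43.7 and 39.1 CPM in the hippocampus HET libraries and at 52.3, 53.7 and 58.7 CPM in the WT libraries. The MGE libraries had 2.69, 3.92 and 3.67 CPM in HET and 4.59, 3.15 and 3.72 CPM in WT. The cortex libraries had 66.7, 73.6 and 89.3 CPM in HET and 99.0, 64.8 and 73.6 CPM in WT. All cortex libraries were above all hippocampus libraries, and these were above all MGE libraries.

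Between MGE and cortex, the log2 fold change of Cxcl12 was -4.48 (SE 0.19) in HET and -4.36 (SE 0.19) in WT libraries, the steepest embryonic difference among the 6 genes (adjusted p = 9.18e-12 and 1.51e-11). Between hippocampus and MGE it was 3.65 (SE 0.19) in HET and 3.84 (SE 0.19) in WT (adjusted p = 4.93e-12 and 2.53e-12). Hippocampus was lower than cortex by less, with -0.83 (SE 0.16) in HET and -0.53 (SE 0.16) in WT (adjusted p = 0.00013 and 0.00582). The WT value fell short of the threshold without cortex WT 1, the library with the highest level (-0.34, adjusted p = 0.0564). Genes of meninges and mesenchyme, a source of CXCL12 around the embryonic brain, were also lower in MGE. In WT MGE, 12 of 14 were called lower than in WT cortex, as were 3689 of all 16125 genes. The summed level of these 14 genes was 219 to 258 CPM in HET MGE and 196 to 235 CPM in WT MGE, against 880 to 1235 CPM in HET cortex and 586 to 931 CPM in WT cortex. In hippocampus the sum was lower still, at 79.8 to 129 CPM in HET hippocampus and at 118 to 150 CPM in WT hippocampus, whereas Cxcl12 was higher there than in MGE. The part of these cells in the Cxcl12 differences was not tested.

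Cxcr4, the signalling receptor, was highest in embryonic cortex and low in adult hippocampus. The hippocampus libraries had 3.45, 3.81 and 3.86 CPM in HET and 2.31, 3.22 and 3.49 CPM in WT. MGE had 13.007, 15.5 and 13.8 CPM in HET and 14.2, 17.5 and 23.3 CPM in WT. Cortex had 29.3, 31.0 and 34.9 CPM in HET and 40.7, 34.8 and 26.4 CPM in WT. No 2 tissues overlapped within a genotype. MGE was below cortex with a log2 fold change of -1.17 (SE 0.18) in HET and -0.89 (SE 0.18) in WT, or 0.444 and 0.539 of the cortical level (adjusted p = 6.10e-05 and 0.000753). In a fit of the 6 WT libraries alone the WT value was -0.89 (adjusted p = 0.00923), and with the replicate number as a block as well it missed the threshold (-0.90, adjusted p = 0.0599). Hippocampus was below cortex by more, with -3.10 (SE 0.20) in HET and -3.49 (SE 0.20) in WT (adjusted p = 1.22e-10 and 3.10e-11). Against MGE it stood at -1.93 (SE 0.20) in HET and -2.60 (SE 0.20) in WT (adjusted p = 5.83e-08 and 1.29e-09).

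Ackr3, the scavenging receptor, had the reverse order of Cxcr4 in the embryo. It reached 111, 161 and 129 CPM in HET MGE and 131, 139 and 178 CPM in WT MGE, the highest level of any of the 6 genes. Cortex had 25.7, 26.4 and 40.9 CPM in HET and 35.0, 33.6 and 46.0 CPM in WT, and hippocampus had 18.4, 14.2 and 21.2 CPM in HET and 16.0, 14.4 and 16.7 CPM in WT. The 3 tissues did not overlap in either genotype. MGE was above cortex 4.31-fold in HET and 3.91-fold in WT (log2 2.11 and 1.97, SE 0.20 each, adjusted p = 3.59e-07 and 7.95e-07). Hippocampus was below cortex, with a log2 fold change of -0.79 (SE 0.20) in HET and -1.28 (SE 0.20) in WT (adjusted p = 0.00169 and 1.79e-05). It was also below MGE, with -2.90 (SE 0.21) in HET and -3.25 (SE 0.21) in WT (adjusted p = 8.06e-10 and 2.11e-10).

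The balance of both CXCL12 receptors differed by tissue. For each Cxcr4 read there were 8.51 to 10.4 Ackr3 reads in HET MGE and 7.65 to 9.22 in WT MGE. In cortex the ratio was 0.851 to 1.17 in HET and 0.861 to 1.74 in WT, and in hippocampus it was 3.73 to 5.49 in HET and 4.47 to 6.94 in WT. MGE, hippocampus and cortex took this order without overlap between tissues, and HET and WT overlapped in each tissue. These are ratios of counts, not corrected for gene length.

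Nrg1, which encodes many neuregulin forms, was highest in embryonic cortex. The hippocampus libraries had 1.47, 1.70 and 1.95 CPM in HET and 2.55, 1.51 and 2.16 CPM in WT. MGE had 6.64, 2.16 and 4.93 CPM in HET and 3.61, 3.84 and 3.43 CPM in WT, and cortex had 13.2, 12.4 and 12.3 CPM in HET and 14.7, 17.5 and 11.9 CPM in WT. The tissues did not overlap within a genotype, although the HET MGE libraries were widely spread. MGE stood below cortex with a log2 fold change of -1.46 (SE 0.28) in HET and -2.02 (SE 0.29) in WT (adjusted p = 0.000483 and 2.73e-05). Hippocampus stood below cortex with -2.89 (SE 0.31) in HET and -2.82 (SE 0.30) in WT (adjusted p = 1.07e-07 and 1.15e-07). Against MGE, hippocampus stood at -1.42 (SE 0.30) in HET and -0.81 (SE 0.30) in WT (adjusted p = 0.00035 and 0.0206), and the WT value missed the threshold without hippocampus WT 2 (-0.62, adjusted p = 0.0955).

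Nrg3, a ligand of ErbB4 in the cortical plate, was highest in the P45 hippocampus. It stood at 41.5, 47.8 and 48.7 CPM in HET hippocampus and at 45.3, 41.7 and 41.9 CPM in WT hippocampus. In the embryo it had 5.14, 0.896 and 2.18 CPM in HET MGE, 2.95, 1.84 and 1.55 CPM in WT MGE, 4.06, 3.18 and 7.16 CPM in HET cortex and 5.72, 4.91 and 7.93 CPM in WT cortex. All adult libraries were above all embryonic ones. Hippocampus exceeded cortex 9.52-fold in HET and 6.96-fold in WT (log2 3.25, SE 0.41, and 2.80, SE 0.40, adjusted p = 1.65e-06 and 7.58e-06). The log2 fold change of hippocampus against MGE was 4.07 (SE 0.43) in HET and 4.33 (SE 0.44) in WT (adjusted p = 1.81e-07 and 1.14e-07).

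In the embryo, Nrg3 was lower in WT MGE than in WT cortex (log2 fold change -1.53, SE 0.43, adjusted p = 0.00955). In HET the libraries of both tissues overlapped, and the difference of -0.81 (SE 0.42, 95% interval -1.71 to 0.08) did not pass (adjusted p = 0.137). This rests on MGE HET 1, without which the value was -1.64 (adjusted p = 0.00324). The same library had the highest Nrg1 of the MGE and the highest sum of 8 Cajal-Retzius cell markers, with 91.6 CPM against 13.7 and 37.5 CPM in HET 2 and HET 3, and 25.0, 25.7 and 42.3 CPM in WT 1, WT 2 and WT 3. In HET, all 3 measures had the order HET 1, HET 3, HET 2. The sum of 6 thalamus and septum markers had this order too, at 499, 399 and 328 CPM. Among the WT MGE libraries, the order of Nrg3 was the reverse of that of the Cajal-Retzius sum. The part of any of these cells in the values was not tested.

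Erbb4, the neuregulin receptor of interneurons, was highest in the MGE and lowest in embryonic cortex. The hippocampus libraries had 20.2, 20.4 and 18.8 CPM in HET and 23.6, 21.9 and 18.3 CPM in WT. MGE had 39.1, 31.3 and 41.3 CPM in HET and 27.8, 40.7 and 48.5 CPM in WT. Cortex had 2.69, 3.66 and 4.37 CPM in HET and 8.97, 3.25 and 6.49 CPM in WT. Every MGE library was above every hippocampus library, and these were above every cortex library. MGE exceeded cortex 10.4-fold in HET and 6.23-fold in WT (log2 3.38, SE 0.29, and 2.64, SE 0.28, adjusted p = 1.28e-07 and 1.45e-06). Hippocampus exceeded cortex 5.53-fold in HET and 3.40-fold in WT (log2 2.47, SE 0.29, and 1.77, SE 0.28, adjusted p = 5.22e-07 and 1.67e-05). Against MGE, hippocampus was lower, with log2 fold changes of -0.91 (SE 0.26) in HET and -0.87 (SE 0.26) in WT (adjusted p = 0.00415 and 0.00548).

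Within the MGE, Erbb4 had the order of the libraries' summed level of 16 interneuron markers. That sum was 3400.2, 3205 and 3687 CPM in HET 1, HET 2 and HET 3, and 2752, 3675 and 4047 CPM in WT 1, WT 2 and WT 3. MGE WT 1 was lowest and WT 3 highest in both measures, and HET 2 was the lowest of the HET libraries in both. The part of interneuron content in the spread of Erbb4 was not tested.

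In read counts, Nrg3 exceeded Nrg1 in hippocampus and Nrg1 exceeded Nrg3 in the embryonic tissues. For each Nrg1 read there were 25.0 to 28.2 Nrg3 reads in HET hippocampus and 17.7 to 27.6 in WT hippocampus. In MGE the ratio was 0.416 to 0.775 in HET and 0.453 to 0.818 in WT, and in cortex it was 0.257 to 0.583 in HET and 0.282 to 0.668 in WT. Nrg1 had more reads than Nrg3 in all 12 embryonic libraries and fewer in all 6 hippocampus libraries. Per kilobase of annotated exon the embryonic order held in 9 of 12, since Nrg3 was above Nrg1 in MGE HET 1 (1.18), MGE WT 1 (1.24) and cortex WT 3 (1.01). This count depends on the transcript length used, since isoforms are not resolved and cortex WT 3 was close to equal.

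**Figure D2:**
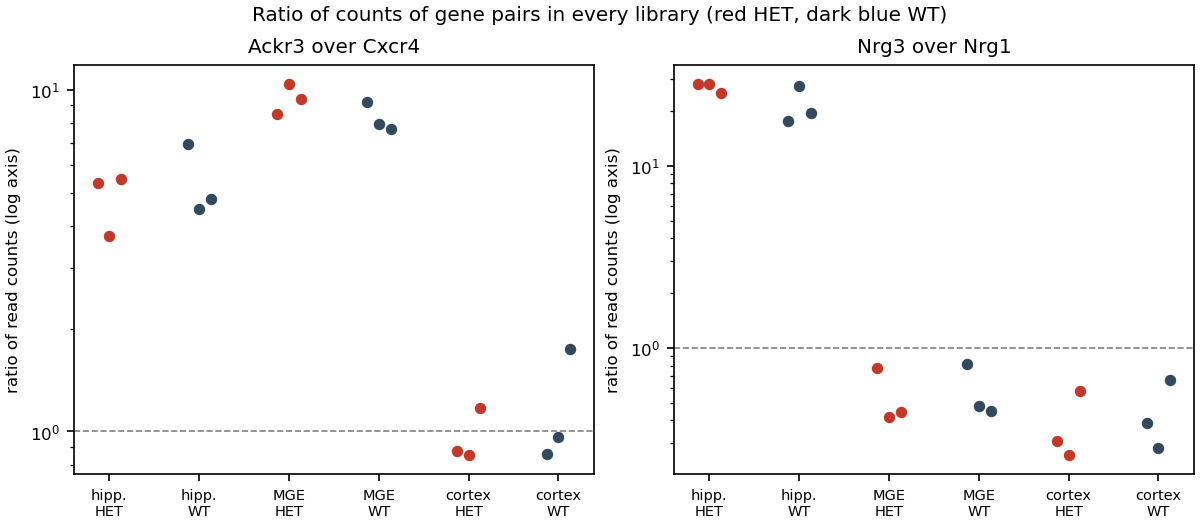
Ratio of read counts of Ackr3 over Cxcr4 and of Nrg3 over Nrg1 in every library (vertical log axes), not corrected for gene length, with HET in red, WT in dark blue and a dashed line at equal counts. The receptor ratio stood at 7.65 to 10.4 in MGE and at 0.851 to 1.74 in cortex, and the neuregulin ratio was above 17 in hippocampus and below 1 in the embryo.

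**Figure D3:**
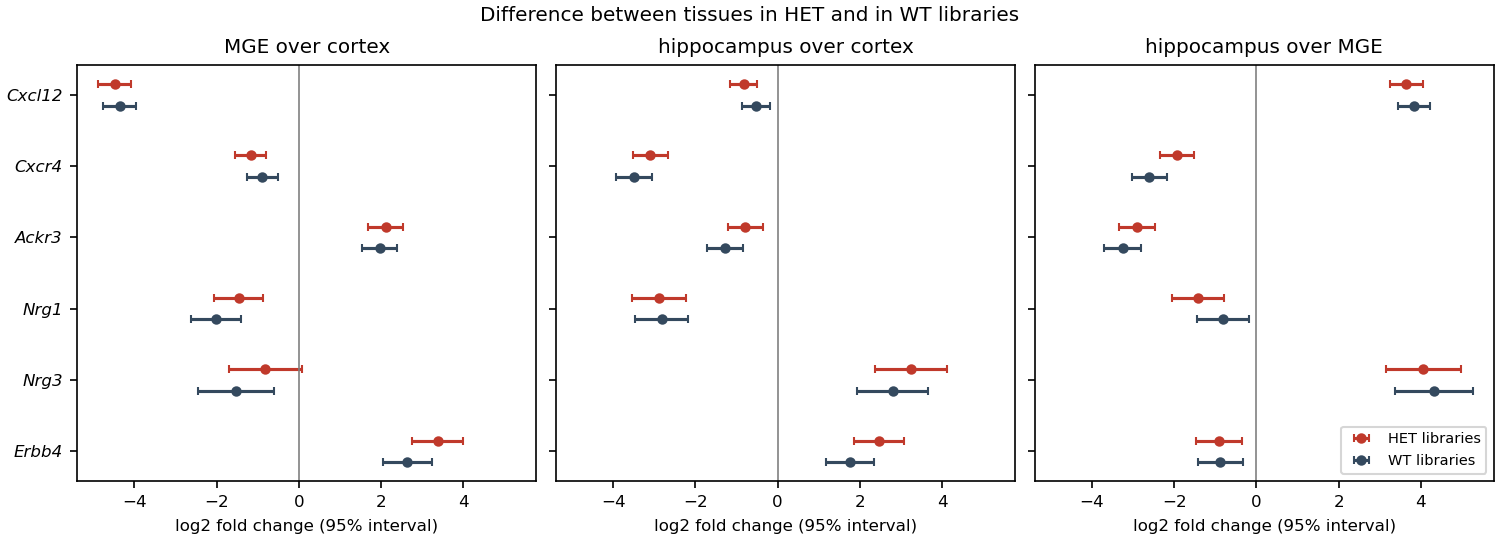
log2 fold change (horizontal axes) between tissues for the 6 genes, with HET libraries in red above WT libraries in dark blue. Whiskers are 95% intervals from the fit of all 18 libraries. Only the interval of Nrg3 in HET MGE over HET cortex (-1.71 to 0.08) includes 0.

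Levels of different genes were compared per kilobase of annotated exon. In MGE, Ackr3 was highest with 40.0 CPM per kb in HET and 44.6 in WT, followed by Cxcr4 (7.81 and 10.1) and Erbb4 (3.02 and 3.16). Nrg1, Cxcl12 and Nrg3 had means between 0.310 and 0.467 CPM per kb there. In cortex the order began with Cxcr4 (17.6 CPM per kb in HET, 18.8 in WT), while Cxcl12 (9.36 and 9.68) and Ackr3 (9.25 and 11.4) did not differ beyond their spread, and Erbb4 was last (0.289 and 0.505). In hippocampus, Nrg3 (6.75 and 6.30), Ackr3 (5.35 and 4.69) and Cxcl12 (5.27 and 6.72) were the upper 3, and Nrg1 was last (0.165 and 0.200). The order of Nrg3, Ackr3 and Cxcl12 depends on the transcript length used, since isoforms are not resolved.

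Most of these levels were not called different between HET and WT, which does not show that they were unchanged. By edgeR's quasi-likelihood test in each tissue, 1 of 6 genes was called in hippocampus, where 1.07% of 15283 genes were called, 0 of 6 in MGE, where 0.0479% of 14624 genes were called, and 0 of 6 in cortex, where 0% of 14757 genes were called. At an unadjusted p under 0.05 the members numbered 1, 0 and 0, and all genes 2378 in hippocampus, 659 in MGE and 1165 in cortex. DESeq2 called the same number of members in each tissue. HET and WT libraries did not overlap for 1 of 6 genes in hippocampus, 0 in MGE and 0 in cortex, against 20.8%, 9.70% and 11.1% of all genes.

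Cxcl12 was the gene called in hippocampus. It averaged 43.0 ± 3.65 CPM in HET and 54.9 ± 3.36 CPM in WT (SD, n = 3 each), and every HET library was below every WT library. The log2 fold change was -0.35 (SE 0.07, 95% interval -0.51 to -0.19), a level 0.786 times that of WT, with an adjusted p of 0.0491 just under the threshold. A covariate of Y-linked RNA says nothing here, since these libraries held almost none. Of the other 13 alternatives, 8 did not pass, although the log2 fold change stayed between -0.41 and -0.28 in all of them. The adjusted p was 0.923 in one fit of all 18 libraries, and 0.0813, 0.283, 0.174 and 0.120 without HET 2, HET 3, WT 2 and WT 3. In MGE its log2 fold change was -0.16 (SE 0.23, interval -0.67 to 0.35, adjusted p = 0.982), and in cortex it was -0.04 (SE 0.18, interval -0.45 to 0.38, adjusted p = 0.939). The effect in hippocampus was not shown to differ from that in cortex (interaction 0.30, SE 0.22, adjusted p = 0.552) or in MGE (0.19, SE 0.25, adjusted p = 0.887).

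Genes of blood vessel endothelium moved in the same libraries. Of 12 listed endothelial genes, 5 fell in HET hippocampus and 0 rose, where 1.07% of all genes were called. The log2 fold change was below 0 for 11 of the 12 and for 7435 of all 15283 genes, with medians of -0.53 and 0.00. Flt1, a VEGF receptor, averaged 21.5 CPM in HET and 37.8 CPM in WT (log2 fold change -0.81, SE 0.07, adjusted p = 0.000219). Mfsd2a, a lipid transporter of the blood-brain barrier, averaged 17.0 and 29.4 CPM in HET and WT (-0.79, SE 0.09, adjusted p = 0.00223). The others that fell were the efflux pump gene Abcb1a (-0.53, SE 0.08), the glucose transporter gene Slc2a1 (-0.56, SE 0.10) and the adhesion gene Esam (-0.54, SE 0.12), with adjusted p = 0.0122, 0.0456 and 0.0491. The 12 genes summed to 231, 210 and 208 CPM in the HET libraries and to 308, 328 and 314 CPM in the WT libraries, which do not overlap, and none was at 0. Their part in the Cxcl12 difference was not tested. Of all genes taken singly, 11.7% had every HET hippocampus library below every WT one. The sums of meningeal and mesenchymal genes overlapped between HET and WT hippocampus, with 0 of 14 called.

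**Figure D4:**
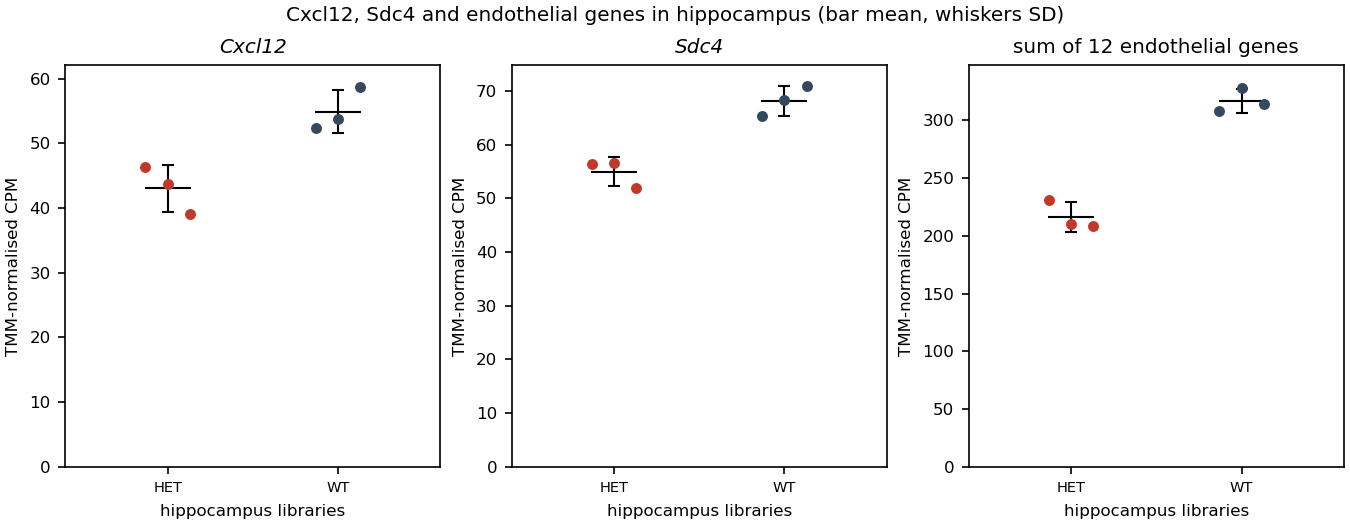
TMM-normalised CPM (vertical axes, from 0) of Cxcl12, Sdc4 and the sum of 12 endothelial genes in the hippocampus libraries, HET left of WT. Bars are means and whiskers SDs of 3 libraries. In each panel the 3 HET libraries lie below the 3 WT libraries, with endothelial sums of 208 to 231 CPM against 308 to 328 CPM. Of all genes taken singly, 11.7% had this pattern in hippocampus.

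The remaining 5 genes in hippocampus had adjusted p of 0.491 to 0.701. Cxcr4 averaged 3.70 ± 0.225 CPM in HET and 3.01 ± 0.617 CPM in WT (SD, n = 3 each), with a log2 fold change of 0.30 (interval -0.13 to 0.73). Ackr3 averaged 17.9 ± 3.51 and 15.7 ± 1.20 CPM in HET and WT, with 0.19 (interval -0.10 to 0.48). Nrg1 stood at -0.28 (interval -0.85 to 0.30). Nrg3 and Erbb4 had the narrowest intervals of these 5, at 0.10 (interval -0.06 to 0.27) and -0.10 (interval -0.32 to 0.13).

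In MGE, where the genotypes also differ in sex markers, Cxcr4 came nearest to a difference. It averaged 14.1 ± 1.27 CPM in HET and 18.3 ± 4.61 CPM in WT (SD, n = 3 each), with a log2 fold change of -0.38 (SE 0.17, interval -0.76 to 0.01, adjusted p = 0.980). Ackr3 stood at -0.16 (interval -0.52 to 0.20) and Erbb4 at -0.06 (interval -0.52 to 0.40). The neuregulins had wide intervals, at 0.34 for Nrg1 (-0.46 to 1.14) and 0.37 for Nrg3 (-1.04 to 1.78), and both were negative without MGE HET 1. Over the 6 genes the median was -0.11, against 0.01 over all genes.

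In cortex all 6 log2 fold changes were below 0, with a median of -0.25 against 0.01 over all genes, and none passed. Erbb4 had the largest, at -0.79 (SE 0.38, interval -1.67 to 0.08, adjusted p = 0.578), with 3.57 ± 0.845 CPM in HET and 6.24 ± 2.86 CPM in WT (SD, n = 3 each). Beside it, 12 of 15 tested interneuron markers were below 0 in cortex and 0 passed, with a median of -0.47, and the sum of all 16 was 551 to 584 CPM in HET cortex and 618 to 675 CPM in WT cortex, which do not overlap. Of 10 projection neuron markers 9 were below 0 and 0 passed, with a median of -0.25. The sum of 6 choroid plexus markers varied widely in cortex, at 13.4, 255 and 442 CPM in HET 1, HET 2 and HET 3. In WT 1, WT 2 and WT 3 it was 1559, 5.68 and 1198 CPM. Within each genotype, Erbb4 had the same order of libraries as the choroid plexus sum, and the interneuron sum had another order. The part of any of these cell types in these values was not tested. Over all 14757 genes tested in cortex, 7046 were below 0, and 5.88% had every HET library below every WT one. Nrg3 stood at -0.35 (interval -1.12 to 0.42), Ackr3 at -0.29 (-0.78 to 0.20), Nrg1 at -0.20 (-0.58 to 0.17) and Cxcr4 at -0.09 (-0.48 to 0.31). The values depend on which cortex HET libraries were used. Without HET 3, Ackr3 fell further and passed (-0.54, adjusted p = 0.0195), in a comparison that then called 4598 genes in all. With HET 3 as the only HET library, the values of Cxcr4, Cxcl12, Ackr3 and Nrg3 were above 0.

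**Figure D5:**
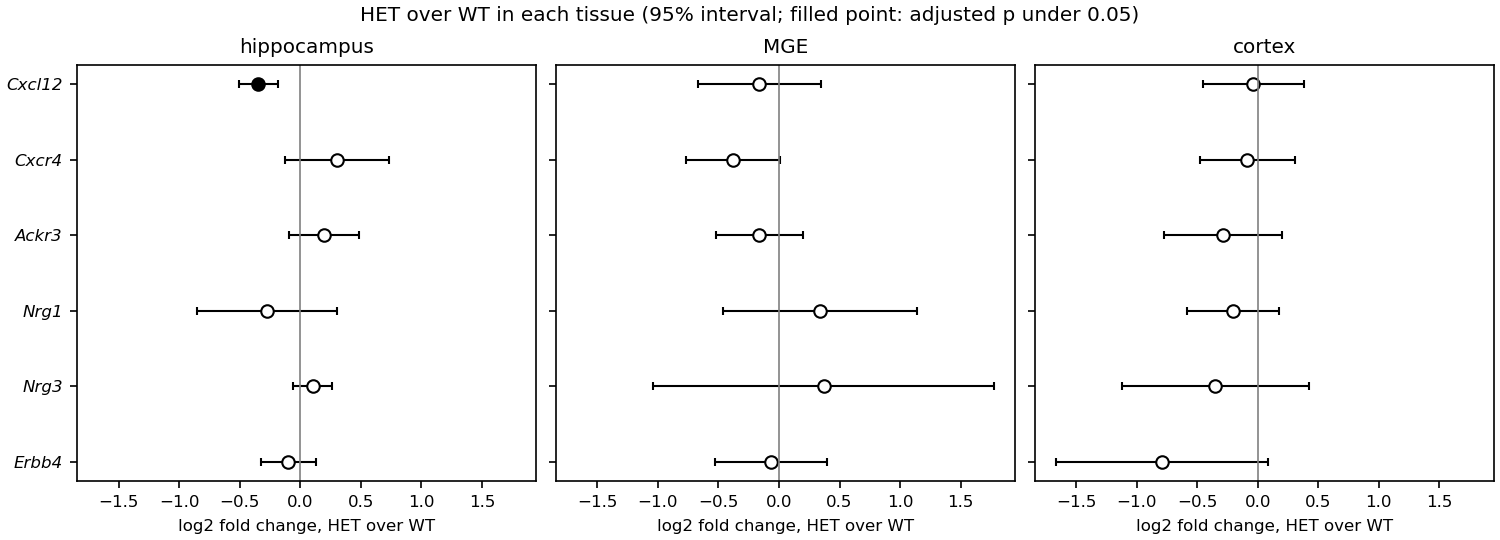
log2 fold change of HET over WT (horizontal axes) with 95% intervals for the 6 genes in hippocampus, MGE and cortex. The filled point, Cxcl12 in hippocampus at -0.35, had an adjusted p under 0.05, and every open point has an interval that includes 0.

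Whether the genotype effect of a member differed between tissues was tested by interaction terms, and 0 of 6 passed for any pair (edgeR, adjusted p = 0.444 to 0.997). The background was 0% of genes for MGE against cortex, 0.00620% when hippocampus was set against MGE and 0.0124% for hippocampus and cortex. Cxcr4 had the lowest unadjusted p, 0.0256, for MGE against hippocampus, with a difference of log2 fold changes of -0.67 (SE 0.28, adjusted p = 0.656). Erbb4 differed by 0.74 (SE 0.39) between MGE and cortex (adjusted p = 0.729) and by -0.70 (SE 0.39) between cortex and hippocampus (adjusted p = 0.444).

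Few genes that act with CXCL12 and its receptors passed the test of HET against WT. Not passing does not show that a gene was unchanged, as Chd2 itself did not pass. Of 22 tested in hippocampus, 1 fell and 0 rose, or 4.55% against 1.07% of all genes. It was Sdc4, a heparan sulfate proteoglycan that can bind the chemokine, at 56.4, 56.6 and 51.9 CPM in HET and 65.3, 68.3 and 70.9 CPM in WT. All HET libraries were below all WT libraries, as for 11.7% of all genes there. The log2 fold change was -0.31 (SE 0.06, adjusted p = 0.0371). The median of the list was -0.06 in hippocampus, and 0 of 21 passed in MGE (median 0.00) and in cortex (median 0.04). The lowest p in MGE belonged to Pik3cg, a lipid kinase (-0.67, SE 0.21), and in cortex to Adrbk2, a receptor kinase (-0.50, SE 0.19).

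The ErbB list, with other ligands, receptors and the proteases that cut them, had 0 genes past the threshold among 22 tested in hippocampus, 21 in MGE and 21 in cortex, with medians of -0.05, -0.04 and 0.07. Errfi1, an inhibitor of ErbB kinases, came nearest in hippocampus (-0.24, SE 0.07, adjusted p = 0.150). Egfr in MGE (-1.42, SE 0.60) and Lrig1 in cortex (0.59, SE 0.26) had the lowest p of their tissues, with adjusted p = 0.980 and 0.578. Among other motogens and guidance cues, 0 of 22 passed in hippocampus, 0 of 20 in MGE and 0 of 21 in cortex, with medians of -0.09, -0.08 and -0.03. Nrp1, a semaphorin receptor that interneurons use to avoid the striatum, had the lowest p of these in cortex (-0.42, SE 0.12, adjusted p = 0.578).

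Between tissues, the share of each pathway list called was read against that of all genes. In WT MGE against WT cortex, 6 of 22 genes of CXCL12 signalling were higher and 3 lower, or 40.9% against 44.3% of all genes, with a median of 0.12 against -0.01 over all genes. Plcb1, a phospholipase, averaged 7.54 CPM in MGE and 62.0 CPM in cortex (log2 fold change -3.04, SE 0.18, adjusted p = 8.98e-10). Dpp4, a peptidase that trims CXCL12, averaged 0.584 and 2.32 CPM in MGE and cortex (-2.00, SE 0.49, adjusted p = 0.00330), and Rgs4, a brake on G proteins, averaged 8.32 and 20.1 CPM (-1.27, SE 0.27, adjusted p = 0.00152). In WT hippocampus, 11 were higher and 8 lower than in WT cortex (86.4% against 78.9%), and 9 were higher and 9 lower than in WT MGE (81.8% against 80.4%), shares near those of all genes. Cxcl14, a chemokine related to CXCL12, averaged 97.7 CPM in WT hippocampus, against 0.809 CPM in WT cortex and 1.17 CPM in WT MGE (log2 fold changes 6.95, SE 0.56, and 6.39, SE 0.53). Sdc4 averaged 68.2 CPM in WT hippocampus, against 4.08 CPM in WT cortex and 3.69 CPM in WT MGE.

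In the ErbB list of 23 tested genes, 5 were higher and 3 lower in WT MGE than in WT cortex, or 34.8% against 44.3% of all genes. These differences were small apart from Btc, an ErbB ligand that was close to 0 in both tissues. Hbegf, a ligand of ErbB4 and EGFR, averaged 6.90 CPM in WT MGE and 4.42 CPM in WT cortex (log2 fold change 0.64, SE 0.18, adjusted p = 0.00770). In WT hippocampus, 10 were higher and 9 lower than in cortex (82.6% against 78.9%), and 11 were higher and 7 lower than in MGE (78.3% against 80.4%). Erbb3, a neuregulin receptor with little kinase activity, averaged 20.1 CPM in WT hippocampus, against 0.246 CPM in WT cortex and 0.185 CPM in WT MGE (6.32, SE 0.37, and 6.78, SE 0.38). Tgfa, an EGFR ligand, averaged 49.4 CPM against 3.70 and 4.17 CPM, and Nrg2, another neuregulin gene, averaged 12.7 CPM in WT hippocampus against 1.41 CPM in WT cortex (log2 fold change 3.18, SE 0.25). Dlg4, which encodes a postsynaptic scaffold that binds ErbB4, averaged 989 CPM against 112 CPM in WT cortex and 100.1 CPM in WT MGE.

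Of 24 other cues, 9 were higher and 6 lower in WT MGE than in WT cortex, or 62.5% against 44.3% of all genes. Ntn1, a secreted guidance cue of the ventral forebrain, averaged 212 CPM in WT MGE and 4.06 CPM in WT cortex (log2 fold change 5.69, SE 0.27, adjusted p = 1.11e-10). Cntn2, an adhesion protein of early cortical axons, averaged 24.9 and 534 CPM in WT MGE and WT cortex (-4.42, SE 0.35, adjusted p = 5.71e-08). Efna5, a repellent ephrin, averaged 32.2 and 4.10 CPM there (2.97, SE 0.24, adjusted p = 3.50e-08). In WT hippocampus, 13 were higher and 5 lower than in cortex, or 75% against 78.9%. Slc12a5, the chloride transporter whose rise ends interneuron migration, averaged 751 CPM in WT hippocampus and 4.997 CPM in WT cortex (log2 fold change 7.23, SE 0.31), and Bdnf, which acts on interneurons through Ntrk2, averaged 55.5 and 0.459 CPM (6.89, SE 0.29).

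The genes with the most similar levels across the 18 libraries were taken by Pearson's r of log2 CPM among 12036 genes, as a description. The libraries fall into 3 tissues, so r follows tissue above all. Cxcl12 was closest to Rarg (0.991), a retinoic acid receptor, and to Neurod1 (0.991), a transcription factor of excitatory neurons. Cxcr4 was closest to Btg1 and Mfap4 (0.991 each), and Ackr3 to Metap1d (0.990) and Kat2b (0.983). Erbb4 was closest to Csrnp3 (0.984) and then to Gad2 (0.971), which encodes a GABA-synthesising enzyme. Nrg1 was closest to Srrm4 (0.968), a neuronal splicing regulator, and Nrg3 to Tmem63c (0.993), Clec2l and Kif5c (0.988 each).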

How the data were processed

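Poly(A) RNA libraries were made from Trizol extracts with the NEBNext Ultra kit, per the labels' protocols. The authors deposited raw counts per gene symbol, without normalization. Reads were handled with Trimmomatic, FastQC, SAMtools, TopHat2 2.1.1 and DESeq2 on build mm10, per the submitters' processing notes. Which program, annotation and strand setting produced the counts is not given in the sources used. The 6 genes and all lists were chosen with earlier results of these data known.

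In R 4.3.3, edgeR 4.0.16 filtered genes (filterByExpr, minimum count 10, minimum total 15), scaled by TMM and ran a robust quasi-likelihood F test with Benjamini-Hochberg adjustment over all genes tested and a threshold of 0.05. HET was tested against WT within each tissue. Tissues and interactions were tested in one fit of all 18 libraries. The standard error is the absolute log2 fold change divided by the square root of F. Simulated data were used to check the procedure. From each pathway list, genes past the threshold were named by size of change (up to 4), or else up to 2 with the lowest p. Alternatives were no filter, scaling by RLE or by the upper quartile, DESeq2 1.42.0, limma-voom (limma 3.58.1), another choice of libraries in the fit, the replicate number as a block, Y-linked level as a covariate and leaving out each library. Leaving out cortex HET 1 and HET 2 together was added after seeing the data.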

Additional observations from a re-analysis of the deposited data

How the results depend on the processing

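Of 35 member differences between tissues past the threshold, 32 kept their direction and their side of it under every alternative run. The exceptions were Cxcl12 in WT hippocampus against WT cortex without cortex WT 1, Nrg1 in WT hippocampus against WT MGE without hippocampus WT 2, and Cxcr4 in WT MGE against WT cortex with the replicate number as a block. Cxcl12 in hippocampus HET against WT missed it with upper quartile scaling (-0.32, adjusted p = 0.0767), limma-voom (-0.35, 0.0526) and one fit of all 18 libraries (-0.35, 0.923), where the number of members called became 0. The Y-linked covariate gave -0.36 (adjusted p = 0.0726, 0 members) but cannot adjust for sex there, as the hippocampus libraries had at most 0.104 CPM of Y-linked RNA. Leaving out 1 library gave -0.41 to -0.28, with 0 or 1 members called, and it was lost without HET 2, HET 3, WT 2 or WT 3. It passed with RLE, no filter and DESeq2. In cortex, leaving out 1 library gave 0 to 1 members called. The causes were not tested.

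Replicate numbers did not pair the samples: deviations of same-numbered libraries correlated at -0.226 to 0.120 between HET and WT. Only in WT MGE against WT cortex was every library closest to its own number (0.0195 to 0.102). Even there, MGE WT 1 carried Xist and cortex WT 1 carried Y-linked RNA, so they came from different embryos. With the replicate block, Cxcl12 in hippocampus stood at -0.35 (adjusted p = 0.120, 0 members called), Cxcr4 in WT MGE against WT cortex at -0.90 (adjusted p = 0.0599, against 0.00923 in a fit of the same 6 libraries without it), and the genes called numbered 80, against 164 without the block, in hippocampus HET against WT and 3182, against 3846 in the same fit of 6 libraries without it, in HET MGE against HET cortex.

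Signs of uncalled effects turned. Leaving out 1 library gave, in MGE, -0.29 to 0.00155 for Cxcl12, -0.25 to 0.13 for Erbb4, -0.0338 to 0.68 for Nrg1 and -0.47 to 0.79 for Nrg3. In cortex it gave -0.24 to 0.0392 for Cxcr4 and -0.16 to 0.13 for Cxcl12. Without cortex HET 1 and HET 2, Cxcr4 stood at 0.038, Cxcl12 at 0.17, Ackr3 at 0.10 and Nrg3 at 0.21. Interactions gave -0.31 to 0.0439 (Cxcl12), -0.0163 to 0.41 (Ackr3) and -0.12 to 1.14 (Nrg3) for MGE against cortex, -0.16 to 0.22 (Erbb4; -0.000707 with upper quartile scaling) and -0.57 to 0.67 (Nrg3; -0.0388 with limma-voom) for MGE against hippocampus, and -0.11 to 0.25 (Nrg1) for cortex against hippocampus.

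Over all genes, DESeq2 called 33 against 7 in MGE, 11 against 0 in cortex and 445 against 164 in hippocampus, and 14, 38 and 77 against 0, 1 and 2 for the interactions. The fit of all 18 libraries called 4 in cortex and 11 in hippocampus, no filter called 1 and 291, the Y-linked covariate called 87 in hippocampus, and a fit of the 6 libraries compared called 3846 against 6612 in HET MGE against HET cortex. Leaving out 1 library called 5 to 27 genes in MGE, 0 to 4598 in cortex (4598 without HET 3), 23 to 292 in hippocampus (23 without HET 3) and 0 to 1044, 1 to 12 and 1 to 2791 for the interactions. In MGE the 95% interval of Nrg3, -1.04 to 1.78, and that of Nrg1, -0.46 to 1.14, leave room for changes of 2-fold in HET.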
